A study of Mus musculus with 12 samples.

Results

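The secreted Wnt inhibitors Sfrp1, Sfrp2, Sfrp4, Sfrp5, Frzb, Dkk1, Dkk2, Dkk3 and Wif1 were read by gene symbol in single-cell RNA-seq data from the mouse mammary gland, as 9 of the 27998 genes listed in each library. The cells came from female C57BL/6J mice aged 43 weeks, and the 12 conditions were 1 library each. Apart from the Intact library, all mice had received 15 daily doses of 160 mg/kg VCD (4-vinylcyclohexene diepoxide), an ovotoxicant that depletes ovarian follicles and is used to model menopause. A total of 9 VCD libraries formed a complete layout of hormone by diet. Hormone was none, estradiol (E2, 1 µg per animal per day) or E2 with progesterone (P4, 1 mg per animal per day), given for 1 week. Diet was free of polybrominated diphenyl ethers (PBDE), or held a PBDE mixture at a low dose for 20 weeks (0.05, 0.0028 and 0.0063 mg/kg per day of its 3 congeners) or at a high dose for 1 week (1, 0.056 and 0.126 mg/kg per day). PBDE dose and duration therefore cannot be told apart. The other libraries were Intact, VCD_E2_ICI (E2 plus a single 5 mg dose of ICI, an estrogen receptor antagonist) and VCD_Vehicle_NormEnv, a further VCD vehicle condition. The labels do not give the number of animals behind a library, so the p-values below measure the spread between these libraries. VCD-treated mice keep residual ovarian tissue, and P4 was never given without E2.

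Wnt proteins are secreted ligands that bind Frizzled receptors and the co-receptors Lrp5 and Lrp6 and so stabilize β-catenin, and they also signal through receptors such as Ror2. The secreted Frizzled-related proteins (Sfrp1, Sfrp2, Sfrp4, Sfrp5 and Frzb) carry a Frizzled-like domain and bind Wnt ligands outside the cell, as does Wif1. Dickkopf proteins act on the receptor side: Dkk1 and Dkk2 bind Lrp5 and Lrp6, whereas Dkk3 is a divergent member that does not act in the same way. In the mammary gland Wnt signals maintain epithelial stem and progenitor cells, and Wnt4 carries part of the progesterone signal to the basal layer.

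All 9 genes are protein coding and were placed on GRCm38 (mm10) with GENCODE M21. Sfrp1 lies at chr8:23411502-23449632, Sfrp2 at chr3:83766321-83774316, Sfrp4 at chr13:19623104-19632994, Sfrp5 at chr19:42197971-42202252 and Frzb at chr2:80411970-80447625. Dkk1 lies at chr19:30545863-30549665, Dkk2 at chr3:132085292-132180304, Dkk3 at chr7:112116017-112159057 and Wif1 at chr10:121033960-121100650. Counts came from the 3′ ends of transcripts, so they do not resolve isoforms.

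The libraries held 41737881 to 109224969 unique molecular identifiers (UMIs) in 2497 to 10006 barcodes. Of 58620 barcodes 46257 passed the filters, and 31438 of these were fibroblasts, with a UMI of Col1a1 or Pdgfra and none of 6 epithelial, immune, endothelial and pericyte genes. Fibroblasts were assigned to 5 subsets by marker genes that include no Wnt inhibitor, each subset being called a gate and named after its leading markers. The Dpp4/Pi16 gate held 9473 cells, the Fabp4/Lpl gate 5646, the Tnc/Mfap4 gate 2528, the Gdf10/F3 gate 2905 and the Cilp/Myoc gate 1655, while 9231 fibroblasts were not assigned. The gates are ranges of a score, and 3566 fibroblasts (11.3%) lay within 0.1 of the cut. In total 740 barcode sequences occurred in more than 1 library. Pairs among Intact, VCD_Vehicle, VCD_E2, VCD_E2_P4 and VCD_Low_PBDE shared 95 to 185 barcodes, and VCD_Low_E2 shared 84 with VCD_Low_E2_P4. Pairs among VCD_Vehicle_NormEnv, VCD_High_PBDE and VCD_E2_ICI shared 27 to 35, and all other pairs 1 to 20. Comparisons of hormone with no hormone at low and high PBDE, and of ICI with VCD_E2, thus cross these sets. What the sharing reflects was not tested. Mature fat cells were nearly absent, since 1 of the 46257 barcodes that passed the filters held at least 3 adipocyte markers. Levels are UMIs summed per library and gate, as CPM, the UMIs of a gene in every 1000000 UMIs of that sum, with n counting libraries.

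Of the 9 inhibitors, 5 were well measured in fibroblasts, namely Sfrp1, Sfrp2, Sfrp4, Dkk2 and Dkk3, and each had its own distribution over the gates (plot of levels by gate). Sfrp1 averaged 213 ± 67.5 CPM (SD, n = 12) in the Tnc/Mfap4 gate and 134 ± 42.2 CPM in the Cilp/Myoc gate, against 24.3 ± 5.98 CPM in the Gdf10/F3 gate, 13.7 ± 3.37 CPM in the Dpp4/Pi16 gate and 11.0 ± 3.37 CPM in the Fabp4/Lpl gate. Sfrp2 reached 1018 ± 292 CPM in the Cilp/Myoc gate, 733 ± 279 CPM in the Dpp4/Pi16 gate, 704 ± 233 CPM in the Tnc/Mfap4 gate, 348 ± 149 CPM in the Gdf10/F3 gate and 47.3 ± 34.2 CPM in the Fabp4/Lpl gate. Sfrp4 was at 959 ± 272 CPM in the Cilp/Myoc gate, 699.6 ± 178 CPM in the Gdf10/F3 gate, 548 ± 152 CPM in the Dpp4/Pi16 gate, 284 ± 245 CPM in the Tnc/Mfap4 gate and 13.0 ± 9.65 CPM in the Fabp4/Lpl gate. All 3 Frizzled-related genes had their lowest mean in the Fabp4/Lpl gate, whose markers include genes of lipid handling. Dkk2 was highest in the Cilp/Myoc gate at 223 ± 61.5 CPM, followed by 51.8 ± 39.7 CPM in the Tnc/Mfap4 gate, 29.0 ± 7.39 CPM in the Dpp4/Pi16 gate, 17.4 ± 8.55 CPM in the Gdf10/F3 gate and 10.4 ± 4.89 CPM in the Fabp4/Lpl gate. Dkk3 differed from Dkk2 in being highest in the Gdf10/F3 gate at 48.1 ± 10.1 CPM, with 36.4 ± 8.52 CPM in the Cilp/Myoc gate, 31.2 ± 14.3 CPM in the Tnc/Mfap4 gate, 8.27 ± 3.02 CPM in the Dpp4/Pi16 gate and 1.52 ± 1.17 CPM in the Fabp4/Lpl gate. Immune cells of the same libraries, which should lack these genes, ranged from 6.67 to 15.4 CPM for Sfrp1, 50.5 to 173 CPM for Sfrp2, 53.8 to 185 CPM for Sfrp4, 1.83 to 20.9 CPM for Dkk2 and 1.77 to 6.44 CPM for Dkk3. Set against immune cells of the same library, Sfrp4 and Dkk3 in the Fabp4/Lpl gate were lower in each of the 12 libraries and Sfrp2 in 11. Cells of this gate had a median of 16145.5 UMIs and immune cells 8782. The levels in immune cells are therefore taken as an upper reference for the free RNA of the droplets and not as a measure of it, and their source was not tested. Sfrp1 and Dkk2 in the Fabp4/Lpl gate were higher than in immune cells in 6 of 12 libraries each. Sfrp1 in the Dpp4/Pi16 gate was higher in 9 of 12, in 4 with intervals that did not overlap, and Dkk2 in the Gdf10/F3 gate in 9 of 12, in 7 with intervals that did not overlap.

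**Figure D1:**
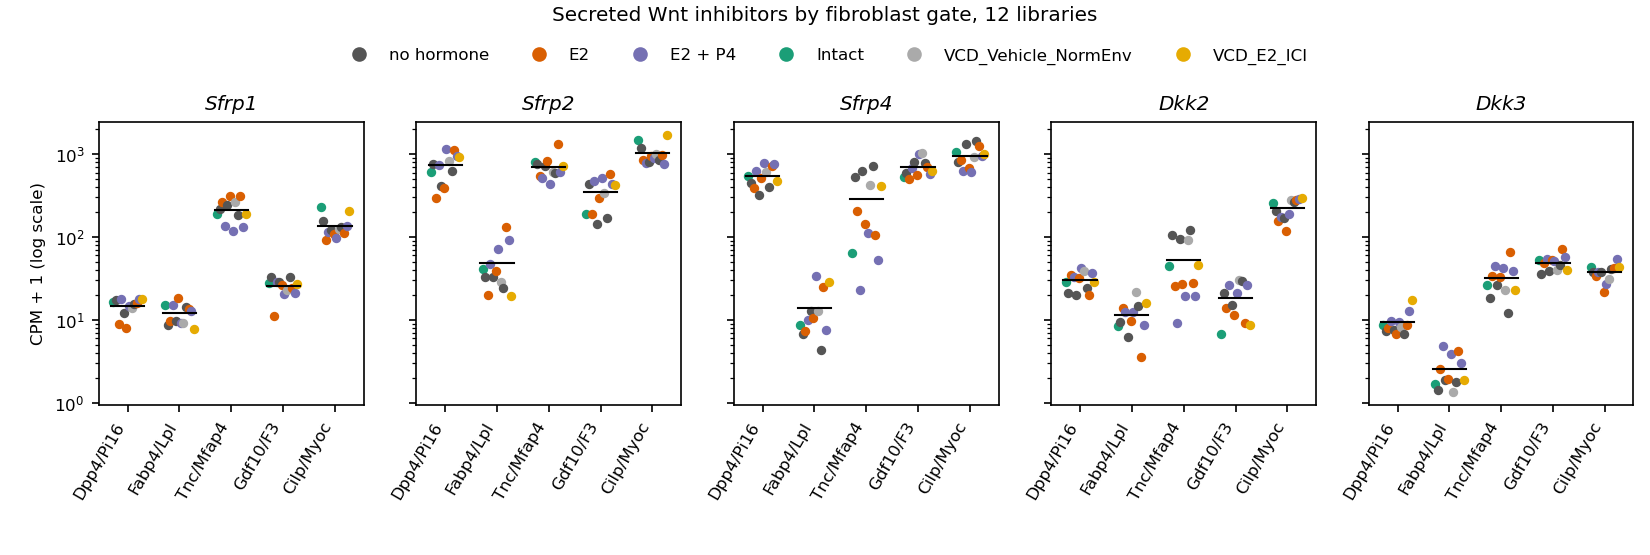
Levels of the 5 measured inhibitors in the 5 fibroblast gates, as CPM + 1 on a log axis, with 1 point per library, coloured by hormone group or single library, and a line at the mean of the 12 libraries. Sfrp1 stands at a mean of 213 CPM in the Tnc/Mfap4 gate and 11.0 CPM in the Fabp4/Lpl gate, and each gene has its lowest mean in the Fabp4/Lpl gate.

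Neighbouring gates in these orders were compared within libraries by an exact two-sided sign-flip permutation test of the log2 difference, with p adjusted over 20 pairs. The orders were taken from the means of the same libraries. This test was run on the inhibitors only, so no share over all genes stands beside its count. A total of 16 pairs passed. The 4 that did not were Dpp4/Pi16 and Fabp4/Lpl for Sfrp1 (adjusted exact p = 0.132), Dpp4/Pi16 and Tnc/Mfap4 for Sfrp2 (adjusted exact p = 0.985), Tnc/Mfap4 and Dpp4/Pi16 for Dkk2 (adjusted exact p = 0.308) and Cilp/Myoc and Tnc/Mfap4 for Dkk3 (adjusted exact p = 0.203). The means pool the hormone groups. For Sfrp4 the order of Dpp4/Pi16 over Tnc/Mfap4 held in 9 of 12 libraries. It was reversed in the vehicle, low PBDE and high PBDE libraries without hormone, at 450.0, 319 and 398 CPM against 528, 620.3 and 723 CPM. Each gate was also set against the average of the remaining 4 by edgeR's quasi-likelihood test, blocked on library, with p adjusted over all genes and a threshold of 0.05. In the Cilp/Myoc gate 5 of 5 tested inhibitors were higher, where 30.4% of all genes were called, with Dkk2 at a log2 difference of 3.27 (SE 0.18). In the Fabp4/Lpl gate 5 of 5 were lower, where 59.6% of all genes were called, from -2.26 (SE 0.24) for Dkk2 to -5.50 (SE 0.38) for Sfrp4. In the Tnc/Mfap4 gate 4 were higher, where 61.2% of all genes were called: Sfrp1 by 2.93 (SE 0.11), Dkk3 by 1.26 (SE 0.13), Sfrp2 by 1.07 (SE 0.15) and Dkk2 by 0.51 (SE 0.22). The last call, of Dkk2, was lost under second marker lists (0.15) and without any of 5 single libraries, at 0.50 without Intact, 0.32 without VCD_Vehicle, 0.29 without VCD_Low_PBDE, 0.48 without VCD_Vehicle_NormEnv and 0.39 without VCD_High_PBDE. These 5 are the libraries that received no hormone. In the Gdf10/F3 gate Dkk3 and Sfrp4 were higher and Dkk2 and Sfrp1 lower, where 46.6% of all genes were called. The call of Sfrp1 there was lost under the second marker lists (-0.15). In the Dpp4/Pi16 gate Sfrp4 and Sfrp2 were higher and Sfrp1 and Dkk3 lower, where 69.1% of all genes were called.

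The other 4 inhibitors were scarce. Sfrp5 had 539 UMIs in 75 of 31438 fibroblasts (0.239%). Of these UMIs 239 (44.3%) came from a single unassigned cell of the VCD_E2_ICI library, and 20 cells with at least 5 UMIs held 85.7%. In Schwann cells, the glia of peripheral nerves, Sfrp5 had a UMI in 48 of 83 cells and stood at 226 CPM (exact Poisson 95% interval 194 to 262, counting error only). A Schwann marker was present in 5 of the 20 fibroblasts richest in Sfrp5 (25.0%), against 29.4% of all fibroblasts, and at least 2 such markers in 4 of the 20 (20.0%), against 3.79% of all fibroblasts. The richest cell held none. In the Gdf10/F3 gate, where Sfrp5 passed the filter on low counts, its level was 8.49, 0.26 and 27.2 CPM in the libraries without hormone (vehicle, low PBDE and high PBDE), 1.43, 1.24 and 2.71 CPM with E2 and 1.95, 1.62 and 0 CPM with E2 and P4. These groups overlapped through the low PBDE library, and the edgeR test of E2 gave a log2 change of -2.16 with an adjusted p of 0.085. Over 23 alternatives the change lay between -3.01 and 0.94, so its direction was not fixed. It was called in 3 of them, among them without VCD_Low_PBDE and without the low PBDE level.

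Frzb had 295 UMIs in 244 fibroblasts, with 98 UMIs in the Fabp4/Lpl gate and 54 in the Tnc/Mfap4 gate. In the Fabp4/Lpl gate, where it passed the filter, it was found in all 12 libraries at 0.48 to 2.41 CPM, and its log2 change with E2 was -0.03 (edgeR adjusted p = 0.984). In the Tnc/Mfap4 gate, where it did not pass, its level was 0, 0.28 and 0 CPM without hormone, 2.83, 0.40 and 2.49 CPM with E2 and 3.1, 0.96 and 5.11 CPM with E2 and P4. The NormEnv library, a VCD library given no hormone, was at 1.90 CPM, above the lowest E2 library. The Intact library, at 1.17 CPM, had received neither VCD nor hormone, and the paper describes its cells as exposed to physiological E2. In Schwann cells Frzb was at 26.6 CPM, with a UMI in 18 of 83 cells, and markers of these cells changed with E2 in the Tnc/Mfap4 gate. Wif1 had 62 UMIs in 33 fibroblasts, 34 of the UMIs in the Cilp/Myoc gate, and was absent from the counts of the Dpp4/Pi16, Fabp4/Lpl and Gdf10/F3 gates. Of these 34 UMIs 17 came from VCD_Low_E2_P4, 13 of them from 1 cell. A count of 0 allows at most 0.362 CPM in a library of the Dpp4/Pi16 gate and 1.94 CPM in a library of the Gdf10/F3 gate (3 counts, counting error only). In basal epithelial cells Wif1 had 18 UMIs, 57.1 CPM (exact Poisson 95% interval 33.8 to 90.3), but these came from 4 of 26 cells, 1 of which held 9. Dkk1 had 12 UMIs in 12 fibroblasts and none in the Tnc/Mfap4 gate. Wif1 and Dkk1 passed the filter in no gate.

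Sequences upstream of the start are shown for Sfrp2 and Dkk2, since these lie on the same chromosome and, in the tests below, Dkk2 was called for E2 in the Tnc/Mfap4 gate and Sfrp2 was not. Both are from RefSeq on GRCm38.p6, plus strand, covering the 250 bases before the start at chr3:83766071-83766320 and chr3:132085042-132085291. Capitals mark matches, on either strand, to the core letters of the estrogen receptor site (GGTCA), the progesterone receptor site (TGTTCT), the TCF/LEF site through which β-catenin acts (CTTTGT) and the TATA box (TATAAA).
Sfrp2 promoter: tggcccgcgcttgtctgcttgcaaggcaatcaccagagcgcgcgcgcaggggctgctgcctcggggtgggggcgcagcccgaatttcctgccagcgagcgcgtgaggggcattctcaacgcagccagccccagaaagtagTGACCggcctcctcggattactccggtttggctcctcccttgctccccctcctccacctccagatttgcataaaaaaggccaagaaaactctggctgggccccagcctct
Dkk2 promoter: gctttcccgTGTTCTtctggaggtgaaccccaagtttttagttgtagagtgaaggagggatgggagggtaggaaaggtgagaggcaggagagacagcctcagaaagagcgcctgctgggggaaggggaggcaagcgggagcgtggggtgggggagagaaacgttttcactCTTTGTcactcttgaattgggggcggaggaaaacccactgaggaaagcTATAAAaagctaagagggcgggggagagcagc
The Sfrp2 window held GGTCA once, read as TGACC at -110 from the start, and none of the other letters. The Dkk2 window held TGTTCT at -241, CTTTGT at -80 and TATAAA at -32, with no overlap among them, and no GGTCA. Among 32851 promoter windows of this length, GGTCA occurred in 35.2%, TGTTCT in 16.1%, CTTTGT in 16.5% and TATAAA in 12.4%. Promoters were found for 6 of the 9 inhibitors and not for Sfrp1, Sfrp4 and Dkk3.

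The question put to the 9-library layout was how ovarian hormones given to VCD-treated mice changed the inhibitors in each gate. In the Tnc/Mfap4 gate Sfrp4 and Dkk2 fell with E2, at each of the 3 PBDE levels, while Dkk3 rose. Sfrp1 was not called for this contrast and fell when P4 was added to E2. There were thus 3 E2 calls among 5 tested inhibitors, in a gate where 32.8% of all genes were called. Sfrp4 stood at 528, 620.3 and 723 CPM in the vehicle, low PBDE and high PBDE libraries without hormone, at 206, 143 and 104 CPM in the same order with E2, and at 22.01, 110.2 and 51.1 CPM with E2 and P4. Each of the 6 hormone libraries lay below each library without hormone, and the E2 and the E2 with P4 libraries overlapped, since 104 CPM in high PBDE with E2 was below 110.2 CPM in low PBDE with E2 and P4. The group means were 624 ± 97.6, 151 ± 51.5 and 61.1 ± 45.0 CPM (SD, n = 3). The log2 change, taken as the mean of both hormone groups minus no hormone, was -2.86 (SE 0.32, edgeR adjusted p = 3.8e-05). Within the PBDE levels, E2 alone changed Sfrp4 by -1.36, -2.11 and -2.79 on the log2 scale and E2 with P4 by -4.52, -2.48 and -3.80.

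Dkk2 stood at 106, 93.9 and 120.4 CPM without hormone, at 24.4, 25.9 and 27.1 CPM with E2, and at 8.18, 18.5 and 18.1 CPM with E2 and P4. The 3 groups did not overlap, and the E2 libraries were close to one another. Their means were 107 ± 13.3, 25.8 ± 1.39 and 14.9 ± 5.85 CPM (SD, n = 3), and the log2 change with E2 was -2.58 (SE 0.17, edgeR adjusted p = 8.1e-07). Within the PBDE levels E2 alone changed Dkk2 by -2.08, -1.82 and -2.11 on the log2 scale. Dkk3 moved the other way. Its level was 17.4, 25.4 and 11.0 CPM without hormone, 32.8, 31.6 and 64.5 CPM with E2 and 43.5, 41.1 and 37.7 CPM with E2 and P4. All 6 hormone libraries lay above the 3 without hormone, with a log2 change of 0.99 (SE 0.26, edgeR adjusted p = 0.012). The call for Dkk3 was lost without the vehicle library (log2 0.93, edgeR adjusted p = 0.078) and without the high PBDE library (log2 0.72, edgeR adjusted p = 0.054). It was also lost with a stricter gate (0.70), with second marker lists (0.72) and in cells thinned to equal depth (0.80). Over all 24 alternatives the change lay between 0.70 and 1.41.

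Sfrp1 and Sfrp2 were not called for E2 in this gate. Sfrp1 stood at 217, 244 and 186 CPM without hormone, 266, 309.7 and 314 CPM with E2 and 135, 117 and 129 CPM with E2 and P4. The E2 libraries lay above and the E2 with P4 libraries below those without hormone, and the mean of both hormone groups was at a log2 change of -0.27 (SE 0.12, edgeR adjusted p = 0.105). Taken apart, Sfrp1 changed by log2 -0.90 (SE 0.14, edgeR adjusted p = 3.6e-04) with E2 and P4, which was called, and by 0.37 (SE 0.14, edgeR adjusted p = 0.089) with E2 alone. The averaged change was called in 6 of 24 alternatives, among them without VCD_High_PBDE (-0.39), without VCD_High_PBDE_E2 (-0.30) and with second marker lists (-0.58). Sfrp2 stood at 751, 712 and 595 CPM without hormone, 550.5, 815 and 1342 CPM with E2 and 513, 431 and 607 CPM with E2 and P4. The E2 libraries spread over a wider range than the others and overlapped the libraries without hormone (log2 -0.18, SE 0.19, edgeR adjusted p = 0.519).

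**Figure D2:**
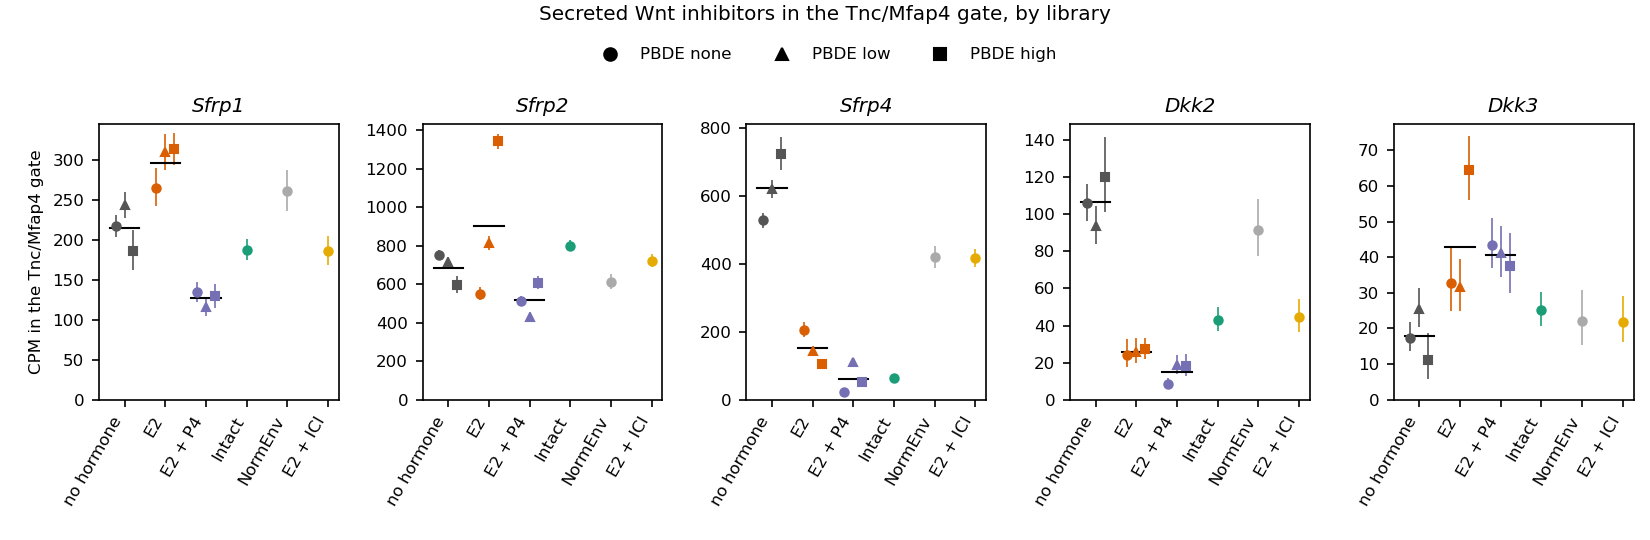
Levels of the 5 measured inhibitors in the Tnc/Mfap4 gate, in CPM on linear axes that start at 0, with 1 point per library: 9 VCD libraries by hormone, with the symbol giving the PBDE level and a line at the mean of 3, and the single libraries Intact, NormEnv and E2 + ICI. Vertical bars are exact Poisson 95% intervals, which cover counting error only, and Sfrp4 and Dkk2 lie lower in each of the 6 hormone libraries than in the 3 VCD libraries without hormone of the layout.

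Other measures of the Tnc/Mfap4 gate were read by hormone group too. The gate held 471, 351 and 126 cells without hormone, 108, 150 and 177 with E2 and 130, 188 and 103 with E2 and P4. These numbers overlapped, since the 126 cells of the high PBDE library without hormone lay within the range of the hormone libraries. The median UMIs per cell rose from between 7858 and 9230 to between 14166 and 16269 with E2 and between 17245 and 25665 with E2 and P4. Thinned to 5000 UMIs per cell, the share of cells with a Sfrp4 UMI was 37.0%, 45.2% and 53.7% without hormone, 27.2%, 18.9% and 18.02% with E2 and 8.0%, 13.2% and 8.7% with E2 and P4. Before thinning the shares were 40.6%, 50.4% and 57.9%, then 37.0%, 28.0% and 30.5%, then 26.9%, 34.0% and 26.2%. Thinning left out 60, 41 and 18 shallower cells without hormone, 5, 7 and 5 with E2 and 5, 59 and 11 with E2 and P4. Within each hormone group the thinned shares kept the order of the CPM. For Dkk2 the thinned shares were 24.3%, 29.0% and 29.6% without hormone, 10.7%, 7.0% and 8.7% with E2 and 5.6%, 6.2% and 6.5% with E2 and P4, and before thinning they were 29.1%, 35.9% and 37.3%, then 18.5%, 16.7% and 18.1%, then 11.5%, 12.8% and 14.6%.

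Free RNA in the droplets can add to these values, and both immune cells and the Fabp4/Lpl gate of the same libraries were read as references for it. Over all libraries thinned immune cells held a Sfrp4 UMI in 11.4% and a Dkk2 UMI in 2.71% of cells, at a median of 8782 UMIs before thinning against 10782 in the gate. Sfrp4 stood in immune cells at 94.8, 96.3 and 91.1 CPM with E2 and at 83.5, 185 and 69.3 CPM with E2 and P4. In the Tnc/Mfap4 gate the Sfrp4 level with E2 and P4 was below that of immune cells in each of these 3 libraries, and the E2 library with high PBDE, at 104 CPM, was close to it. In the Fabp4/Lpl gate Sfrp4 was lower still, at 6.26, 9.45 and 24.2 CPM with E2 and at 9.03, 32.8 and 6.58 CPM with E2 and P4. The level in the Tnc/Mfap4 gate was 4.28 to 32.8 times that of the Fabp4/Lpl gate with E2 and 2.44 to 7.77 times with E2 and P4, with intervals for counting error that did not overlap in any of the 6 libraries. Dkk2 in immune cells was at 10.2, 11.7 and 1.83 CPM with E2 and at 11.6, 17.2 and 14.9 CPM with E2 and P4. In the Fabp4/Lpl gate Dkk2 was at 13.0, 8.66 and 2.55 CPM with E2 and at 11.2, 11.6 and 7.57 CPM with E2 and P4. With E2 the level of Dkk2 in the Tnc/Mfap4 gate was above both references in each library. With E2 and P4 it was above the Fabp4/Lpl gate in 2 of 3 libraries and near immune cells. Dkk3 in immune cells was at 2.56, 2.46 and 1.77 CPM without hormone and higher with it. It was at 5.04, 5.66 and 5.33 CPM with E2 and at 4.91, 6.44 and 5.20 CPM with E2 and P4. These levels lay below the Tnc/Mfap4 and Gdf10/F3 gates in each library, but moved in the same direction as Dkk3 there. How much of Dkk3 and of the remaining Sfrp4 and Dkk2 was free RNA was not tested.

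The genes that define the gate also changed within it. Of its 5 markers 1 rose (Mfap4) and 3 fell (Penk, Enpp2 and Tnc) with E2, and their summed level was 2655 to 2721 CPM without hormone, 1859 to 2205 CPM with E2 and 1902 to 2286 CPM with E2 and P4. Of the 5 Gdf10/F3 markers 2 rose and 3 fell, with a summed level of 304 to 312, 236 to 262 and 165 to 182 CPM in the same order. Of the 5 Fabp4/Lpl markers 1 rose and 1 fell, with a summed level of 1547 to 1587, 2475 to 2823 and 3019 to 3276 CPM. Of the 6 immune markers Ptprc and Cd52 were at 0 in the gate by selection, and the summed level of the list was 15.9 to 57.4 CPM over the 9 libraries. Of the 5 Dpp4/Pi16 markers 2 fell, with a summed level of 328 to 499, 254 to 346 and 199.5 to 395 CPM. The Cilp/Myoc list (1 of 2 tested rose) stood at 62.5 to 148, 51.8 to 194 and 285 to 389 CPM, and the pericyte list (2 of 3 tested fell, Cspg4 at 0) at 47.1 to 59.0, 13.0 to 22.8 and 13.0 to 15.3 CPM. The basal epithelial list (1 of 1 tested rose, namely Acta2, with Krt14 at 0) was at 1.70 to 6.52, 5.26 to 26.6 and 24.2 to 73.9 CPM. Of the 6 Schwann markers 5 were tested, of which Kcna1 and Ncam1 rose and Mbp fell, and the list stood at 12.3 to 16.1, 15.9 to 61.2 and 15.8 to 28.2 CPM, with none of its genes at 0. Schwann cells themselves held 41.9 CPM of Dkk3, 194 CPM of Sfrp1, 491 CPM of Sfrp2 and 214 CPM of Sfrp4. Of 2 tested endothelial markers Egfl7 rose and Kdr fell, with Pecam1 at 0 and a summed level of 3.40 to 10.2 CPM over the 9 libraries. The part of these shifts in the changes of Sfrp4, Dkk2 and Dkk3 was not tested, and fewer cells that express a gene cannot be told apart in summed counts from less RNA per cell.

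In the other gates E2 called 2 further changes, both of Dkk3 (plot of hormone effects). In the Gdf10/F3 gate Dkk3 was at 34.2, 37.9 and 45.3 CPM without hormone, 47.6, 52.1 and 71.0 CPM with E2 and 53.7, 49.8 and 56.6 CPM with E2 and P4. All hormone libraries were above those without, with a log2 change of 0.57 (SE 0.11, edgeR adjusted p = 0.020), and this was 1 call among 6 inhibitors where 2.94% of all genes were called. Markers of other cells moved with E2 there as well. Of 3 tested immune markers Cd74 rose, with Ptprc and Cd52 at 0 and a summed level of 11.6 to 19.2 CPM without hormone, 20.1 to 49.4 CPM with E2 and 22.6 to 63.3 CPM with E2 and P4. Of 2 tested Schwann markers Ncam1 rose and Mbp fell (22.2 to 133, 28.2 to 36.2 and 18.5 to 25.3 CPM), and of 3 tested pericyte markers Notch3 fell (51.2 to 74.0, 57.3 to 92.7 and 53.8 to 95.8 CPM). Among the markers of the other gates Mfap4 and Sema3c rose and Enpp2, Smoc2 and Myoc fell, and of the 5 of the gate itself none was called. Their part in the change of Dkk3 was not tested. The call of Dkk3 was lost with DESeq2 (log2 0.57, adjusted p = 0.055), for E2 alone (0.56), without the low PBDE level (0.62), in cells thinned to 5000 UMIs (0.64) and without any of 4 single libraries (VCD_Vehicle, VCD_Low_PBDE, VCD_Low_E2 and VCD_High_PBDE, at log2 0.52, 0.63, 0.57 and 0.55). In the Fabp4/Lpl gate Dkk3 was at 0.40, 0.87 and 0.75 CPM without hormone, 1.53, 0.94 and 3.15 CPM with E2 and 3.82, 2.85 and 1.97 CPM with E2 and P4. These levels, at most 3.82 CPM, lay below those of immune cells in each library. Free RNA and expression were not told apart at such levels. Dkk3 in immune cells of the 9 libraries was also higher with hormone, at 1.77 to 2.56 CPM without it and 4.91 to 6.44 CPM with it. The log2 change in the gate was 1.76 (SE 0.47, edgeR adjusted p = 0.036). It was 1 call among 6 inhibitors where 12.7% of all genes were called, and was lost in 10 of 22 alternatives, with log2 changes of 0.55 to 2.24 over the 22. Among these were second marker lists (0.55), E2 alone (1.37), no low PBDE level (2.23) and the removal of any of 7 single libraries, namely VCD_Vehicle (1.40), VCD_E2 (1.83), VCD_E2_P4 (1.56), VCD_Low_PBDE (2.24), VCD_Low_E2_P4 (1.70), VCD_High_PBDE (1.69) and VCD_High_PBDE_E2 (1.41). Markers moved with E2 in the Fabp4/Lpl gate as well. Of its own 5 markers 1 rose and 2 fell. Of the Gdf10/F3 markers 2 rose and 2 fell, while 2 of the Tnc/Mfap4, 2 of the Cilp/Myoc and 1 of the Dpp4/Pi16 markers rose. Of the basal epithelial list 1 rose, and of the Schwann list 1 rose and 1 fell. Their part in this change of Dkk3 was not tested. No inhibitor was called in the Dpp4/Pi16 gate, where 9.34% of all genes were called, or in the Cilp/Myoc gate, where 1.80% were.

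The Dpp4/Pi16 gate stood closest to the threshold. Sfrp4 was at 450.0, 319 and 398 CPM there without hormone, 385, 509 and 725 CPM with E2 and 628, 777 and 753 CPM with E2 and P4. The E2 with P4 libraries were above all 3 without hormone, and the E2 libraries overlapped them (log2 0.65, SE 0.17, edgeR adjusted p = 0.051). Dkk2 was at 20.2, 19.1 and 23.4 CPM, then 34.1, 31.3 and 19.2 CPM, then 31.5, 40.8 and 35.3 CPM (log2 0.59, SE 0.17, edgeR adjusted p = 0.068). With E2 and P4 alone set against no hormone both passed, at log2 0.91 for Sfrp4 and 0.80 for Dkk2. Over the alternatives the averaged change was called in 9 of 24 for Sfrp4 (0.39 to 0.92) and in 4 of 24 for Dkk2 (0.38 to 0.80). Markers of other gates rose here with E2. Of the Gdf10/F3 markers Fmo2 and Gas6 rose, with a summed level of 45.8 to 89.6 CPM without hormone, 94.1 to 106 CPM with E2 and 99.1 to 148 CPM with E2 and P4, and of 2 tested Cilp/Myoc markers Cilp rose (296 to 591, 219 to 392 and 499.5 to 599.7 CPM). Smoc2 of the Fabp4/Lpl list and Mfap4 of the Tnc/Mfap4 list rose as well, while no marker of the gate itself or of the immune, endothelial, epithelial, Schwann and pericyte lists was called. Their part in the changes of Sfrp4 and Dkk2 was not tested. In the Cilp/Myoc gate, where Dkk2 and Sfrp4 were highest, their changes with E2 were -0.11 and -0.51 on the log2 scale (edgeR adjusted p = 0.715 and 0.127).

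**Figure D3:**
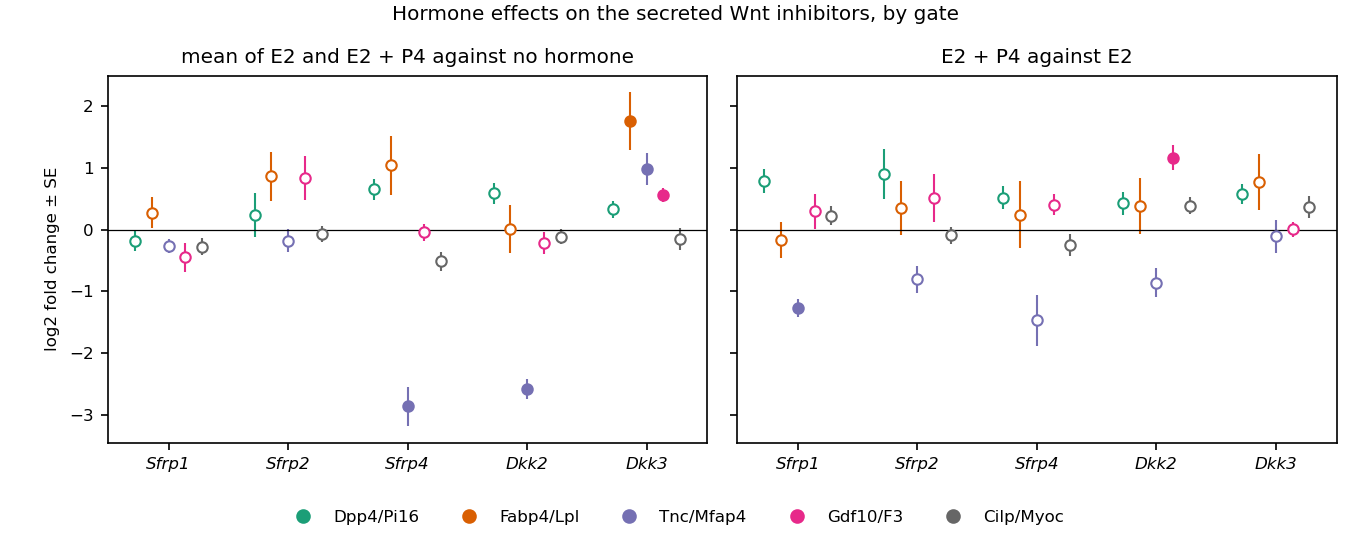
Log2 fold change of the 5 measured inhibitors in each gate, for both hormone groups averaged, relative to no hormone (left) and E2 + P4 against E2 (right), with bars of 1 SE from edgeR and filled points where the adjusted p is under 0.05. On the left Dkk2 at -2.58 and Sfrp4 at -2.86 in the Tnc/Mfap4 gate lie below the values of the other gates.

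Whether the E2 effect itself differed between gates was tested in 1 model over 45 sums. The E2 effect in the Tnc/Mfap4 gate differed from the mean effect in the other 4 gates for Dkk2 (log2 -2.65, SE 0.24, edgeR adjusted p = 1.5e-08), Sfrp4 (log2 -3.16, SE 0.34, edgeR adjusted p = 1.9e-07) and Sfrp2 (log2 -0.65, SE 0.24, edgeR adjusted p = 0.039), where 30.0% of all genes were called. Dkk3, called for E2 in 3 gates, in each of them not under every alternative, was not called here (log2 0.36, SE 0.24, edgeR adjusted p = 0.266). In the Dpp4/Pi16 gate the effect was more positive than elsewhere for Dkk2 (log2 1.32, SE 0.21, edgeR adjusted p = 1.6e-04) and Sfrp4 (log2 1.29, SE 0.34, edgeR adjusted p = 0.013), where 14.4% were called, and in the Fabp4/Lpl gate, where Sfrp4 was below immune cells, for Sfrp4 (log2 1.68, SE 0.45, edgeR adjusted p = 0.038), where 3.51% were called. The mean of the other gates includes the Tnc/Mfap4 gate in these last comparisons. The call of Sfrp2 was lost without VCD_Low_PBDE (-0.41), VCD_Low_E2 (-0.71), VCD_Low_E2_P4 (-0.50) or VCD_High_PBDE (-0.67), with second marker lists (-0.40) and with library sizes only (-0.52). That of Sfrp4 in the Dpp4/Pi16 gate was lost without VCD_Low_PBDE (1.08), VCD_Low_E2 (1.11) or VCD_High_PBDE (1.19). That of Sfrp4 in the Fabp4/Lpl gate held in 4 of 11 alternatives and was lost with second marker lists (0.82) and without VCD_Vehicle (1.95), VCD_E2_P4 (1.65), VCD_Low_PBDE (1.91), VCD_Low_E2_P4 (1.41), VCD_High_PBDE (1.24) or VCD_High_PBDE_E2 (1.15). No inhibitor was called in the Gdf10/F3 and Cilp/Myoc gates, where 3.81% and 0.293% of all genes were called.

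Adding P4 to E2 lowered Sfrp1 in the Tnc/Mfap4 gate from 296 ± 26.7 to 127 ± 9.24 CPM (SD, n = 3), a log2 change of -1.27 (SE 0.14, edgeR adjusted p = 0.0011). Within the PBDE levels the changes were -0.98, -1.40 and -1.27. Sfrp1 was well above immune cells here, which held 6.67 to 15.4 CPM. Markers moved with P4 in this gate too. Of its own 5 markers Mfap4 rose and Penk and Enpp2 fell, of the Gdf10/F3 markers Fmo2 and Gas6 fell, of the Fabp4/Lpl markers Col15a1 rose and of the pericyte markers Abcc9 fell. Among the Schwann markers Kcna1 and Sox10 fell, at the summed levels given above. Their part in the change of Sfrp1 was not tested. The thinned share of cells with a Sfrp1 UMI was 57.3%, 63.6% and 66.9% with E2 and 43.2%, 38.0% and 42.4% with E2 and P4, against 54.5%, 55.5% and 49.1% without hormone. Before thinning these shares were 73.1%, 83.3% and 89.8%, then 80.0%, 53.2% and 68.9%, then 63.3%, 64.4% and 62.7%. This was the only call among 5 inhibitors in the gate, where 5.21% of all genes were called. Sfrp2 (log2 -0.80, edgeR adjusted p = 0.060), Dkk2 (log2 -0.86, edgeR adjusted p = 0.058) and Sfrp4 (log2 -1.47, edgeR adjusted p = 0.062) did not pass. These changes were called in 7 of 22 alternatives for Sfrp2 (-1.10 to -0.47), in 8 of 22 for Dkk2 (-1.60 to -0.30) and in 11 of 22 for Sfrp4 (-2.36 to -0.84). In the Gdf10/F3 gate Dkk2 was at 20.3, 14.1 and 28.5 CPM without hormone, 12.9, 10.4 and 8.13 CPM with E2 and 25.3, 20.2 and 25.6 CPM with E2 and P4. The E2 with P4 libraries lay above the E2 libraries and overlapped those without hormone (log2 1.16, SE 0.20, edgeR adjusted p = 0.034), in a gate where 0.273% of all genes were called. Immune cells of the same libraries held 10.2, 11.7 and 1.83 CPM of Dkk2 with E2 and 11.6, 17.2 and 14.9 CPM with E2 and P4, below the gate in 5 of these 6 libraries. The call was lost in 14 of 21 alternatives, among them the removal of any of the 6 hormone libraries (log2 0.95 to 1.33), second marker lists (0.69) and a stricter gate margin (0.52), the lowest value of the 21. Of the markers of other gates and cells Pi16 rose with P4 in this gate. No inhibitor was called for P4 in the Dpp4/Pi16, Fabp4/Lpl and Cilp/Myoc gates, where 0.0480%, 0.883% and 0.296% were.

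The P4 effect in the Tnc/Mfap4 gate differed from that in the other gates for Sfrp1 (log2 -1.55, SE 0.19, edgeR adjusted p = 1.5e-05), Sfrp2 (log2 -1.22, SE 0.28, edgeR adjusted p = 0.0062), Dkk2 (log2 -1.53, SE 0.36, edgeR adjusted p = 0.0081) and Sfrp4 (log2 -1.72, SE 0.44, edgeR adjusted p = 0.015), where 7.70% of all genes were called. In the Dpp4/Pi16 gate it differed for Sfrp1 (log2 1.02, SE 0.22, edgeR adjusted p = 0.014), where 1.88% were called. Sfrp1 was there at 7.96, 7.02 and 14.8 CPM with E2, against 13.2, 8.40 and 11.0 CPM in immune cells, and at 16.6, 13.7 and 16.7 CPM with E2 and P4, against 6.67, 10.3 and 15.4 CPM. The levels with E2 were thus below immune cells in 2 of 3 libraries, and those with E2 and P4 were above them in each, in VCD_High_PBDE_E2_P4 with overlapping intervals. Single libraries ended some of these calls: that of Sfrp4 was lost without VCD_E2 (-1.10), VCD_E2_P4 (-1.12) or VCD_Low_E2 (-1.76) and that of Dkk2 without VCD_E2_P4 (-1.26), and both with second marker lists (-1.29 and -0.86). That of Sfrp2 was lost without VCD_Low_E2 (-1.16) or VCD_Low_E2_P4 (-0.93), and that of Sfrp1 in the Dpp4/Pi16 gate without VCD_E2 (1.07), VCD_Low_E2 (0.69) or VCD_Low_E2_P4 (0.77). No inhibitor was called in the Fabp4/Lpl, Gdf10/F3 and Cilp/Myoc gates, where 0.336%, 0.172% and 0.767% were.

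The Intact, ICI and NormEnv libraries had no repeats, so their ratios in the Tnc/Mfap4 gate are given with 95% intervals for counting error only and were not tested. Sfrp4 was at 63.8 CPM in the Intact library, which had received no VCD, 0.121 times the 528 CPM of the VCD vehicle library (0.106 to 0.137), and near the 68.9 CPM of immune cells of the same library, with 7.56 CPM in its Fabp4/Lpl gate. Dkk2 was at 43.2 CPM in the Intact library, 0.408 times the vehicle (0.341 to 0.485). Both lay past 2-fold, as did 2.57% of the genes that reached 20 CPM in either library compared, the base of the shares in this paragraph. With E2 and ICI, Sfrp4 was at 417 CPM, 2.03 times the VCD_E2 library (1.79 to 2.29) and 0.789 times the vehicle (0.729 to 0.852). Dkk2 was at 44.7 CPM, 1.84 times VCD_E2 (1.27 to 2.69) and 0.422 times the vehicle (0.335 to 0.526). Against VCD_E2 Sfrp4 was past 2-fold, where 7.65% of such genes were, and against the vehicle Dkk2 was, where 1.52% were. Thus with ICI both levels lay between VCD_E2 and the vehicle, that of Sfrp4 nearer to the vehicle and that of Dkk2 nearer to VCD_E2. In the Fabp4/Lpl gate of the ICI library Sfrp4 was at 27.6 CPM, 4.41 times VCD_E2 (3.18 to 6.22) and 4.86 times the vehicle (3.57 to 6.71). In the Tnc/Mfap4 gate with ICI, Sfrp1 was 0.701 times VCD_E2 (0.612 to 0.802) and Dkk3 0.667 times (0.445 to 0.994). In the NormEnv library Sfrp4 was at 419 CPM and Dkk2 at 91.8 CPM, 0.794 times (0.727 to 0.866) and 0.867 times (0.713 to 1.05) the vehicle, neither past 2-fold, as 1.59% of such genes were. The thinned shares of cells with a Sfrp4 UMI were 10.4% in Intact, 38.5% with ICI and 36.1% in NormEnv, and those for Dkk2 12.6%, 15.4% and 29.3%. Before thinning they were 17.5%, 48.2% and 48.3% for Sfrp4 and 15.2%, 23.0% and 36.4% for Dkk2.

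PBDE called no inhibitor in any gate with edgeR, at either dose, over all 3 hormone groups. Over the 5 gates 0.0106% of all gene tests were called for low PBDE and 0.207% for high PBDE. At an unadjusted p under 0.05 there were 3 of 27 member tests for low PBDE and 4 of 27 for high PBDE, where 3.67% and 14.4% of all gene tests were, among them Dkk2 in the Cilp/Myoc gate with high PBDE (log2 0.63, SE 0.14, edgeR adjusted p = 0.148). With DESeq2 1 member test was called for high PBDE, again Dkk2 in the Cilp/Myoc gate (log2 0.62, SE 0.17, DESeq2 adjusted p = 0.031), where 1.07% of all gene tests were called.

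Other genes of the Wnt pathway were read from 6 lists of 76 genes in all. Of these, 46 were tested for E2 in the Tnc/Mfap4 gate, of which 9 rose and 9 fell, where 32.8% of all genes were called. Of 14 receptors 5 rose and 1 fell, of 10 ligands 1 rose and 3 fell, of 5 targets 1 rose and 3 fell, and of 4 R-spondin genes 1 rose and 1 fell. The largest changes were in the R-spondin list, which holds secreted amplifiers of Wnt signals and their receptors. Rspo1, an amplifier, was at 0.28 to 0.85 CPM without hormone, 3.24 to 22.8 CPM with E2 and 34.4 to 53.8 CPM with E2 and P4 (log2 5.40, SE 0.71, edgeR adjusted p = 1.2e-04). Lgr5, an R-spondin receptor, was at 59.6 to 69.5 CPM without hormone, 2.83 to 13.1 CPM with E2 and 0.28 to 1.86 CPM with E2 and P4 (log2 -4.92, SE 0.27, edgeR adjusted p = 2.8e-07). Axin2, a common β-catenin target and itself an inhibitor inside the cell, was at 23.7 to 32.1, 8.50 to 19.0 and 8.83 to 16.4 CPM in the same order (log2 -1.24, SE 0.23, edgeR adjusted p = 0.0014). Among ligands Wnt4 (-1.44), Wnt16 (-1.42) and Wnt5b (-1.28) fell and Wnt5a (1.20), which acts largely without β-catenin, rose. Wnt4 was at 15.1 to 25.4 CPM without hormone and 9.04 to 21.5 CPM with E2, ranges that overlap. With E2 and P4 it was at 2.26 to 4.18 CPM. Wnt16 overlapped in both hormone groups, at 5.31 to 9.33, 0.40 to 9.04 and 1.41 to 7.44 CPM in the same order. Wnt5b was at 5.79 to 8.66, 3.24 to 4.05 and 1.69 to 3.82 CPM. Among receptors Fzd10 (2.57) and Fzd3 (1.71) rose, as did the transcription factor Tcf7 (1.19), listed as a target. Tcf7 with E2 (4.53 to 9.98 CPM) overlapped the libraries without hormone (2.41 to 5.93 CPM). Fzd10 was scarce, at 0.28 to 0.85 CPM without hormone, 2.02 to 2.27 CPM with E2 and 1.39 to 4.80 CPM with E2 and P4. In a library of this gate 3 counts amount to as much as 2.54 CPM. In the Fabp4/Lpl gate the largest rises were of Igfbp4 (1.79), a secreted protein that can also restrain Wnt signals, and of the Wnt5a receptor Ror2 (1.28).

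Of the same lists, 48 genes were tested in the Dpp4/Pi16 gate, where 1 rose and 8 fell with E2, 40 in the Fabp4/Lpl gate (6 rose and 1 fell), 43 in the Gdf10/F3 gate (1 rose and 3 fell) and 38 in the Cilp/Myoc gate (none rose and 1 fell). The shares of all genes called in these gates were 9.34%, 12.7%, 2.94% and 1.80%. With P4, 1 rose and 3 fell in the Tnc/Mfap4 gate and 2 rose and 1 fell in the Fabp4/Lpl gate, where 5.21% and 0.883% of all genes were called, and none was called elsewhere.

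**Figure D4:**
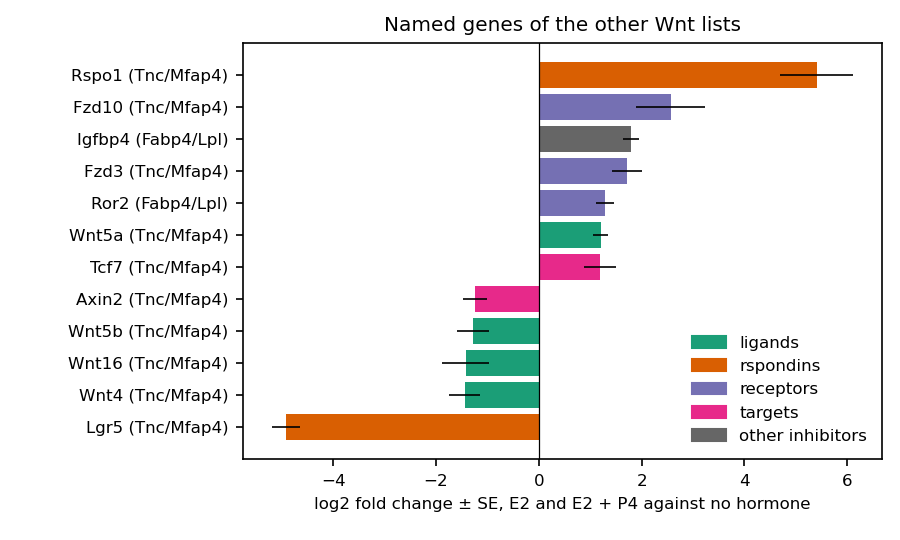
Log2 fold change with E2 (both hormone groups averaged, relative to no hormone) of the 12 named genes from the other Wnt pathway lists, as bars from 0 with 1 SE from edgeR, coloured by list, with the gate in brackets. Rspo1 at 5.40 and Lgr5 at -4.92, both in the Tnc/Mfap4 gate, are at the ends.

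Genes whose levels ran most like those of each inhibitor over the 60 library by gate sums were listed among 5501 genes, as a description. For Sfrp1 these were Fat1 (Pearson r = 0.90), Igfbp2 (0.90) and Mfap4 (0.89), the last of which is a gate marker. For Sfrp4 they were Epdr1 (0.95), Cgnl1 (0.92) and Ntn1 (0.92), and for Sfrp2 Col14a1 (0.88), Ptgis (0.88) and Epdr1 (0.87). For Dkk2 they were Pdlim4 (0.83), Pam (0.78) and Foxp2 (0.78), and for Dkk3 Cd109 (0.89), Matn2 (0.87) and Man2a1 (0.86). Among the inhibitors themselves Sfrp2 and Sfrp4 were most alike (0.81) and Sfrp1 and Sfrp4 least (0.36). The sums share libraries and sequencing depth, and each library enters with all 5 gates.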

How the data were processed

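Cells dissociated from the mammary gland were profiled with Chromium v3 3′ chemistry. The authors deposited raw UMI counts per gene and barcode. The submitters' notes name Cell Ranger 3.1.0 and the mm10 build. The labels name a HiSeq and the study's methods a NovaSeq.

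Barcodes were kept with a minimum of 500 genes and 1000 UMIs and a mitochondrial share of UMIs of up to 5%. Fibroblasts held a UMI of Col1a1 or Pdgfra and none of the epithelial genes Epcam and Krt14, the immune genes Ptprc and Cd52, the endothelial Pecam1 and the pericyte gene Cspg4. Each took the gate whose mean standardized marker score was at least 0.5 above the next. The markers were Dpp4, Pi16, Anxa3, Sema3c and Cd55; Fabp4, Lpl, Cxcl14, Col15a1 and Smoc2; Tnc, Mfap4, Mdk, Penk and Enpp2; Gdf10, F3, Fmo2, Clec11a and Gas6; and Cilp, Myoc and Fmod. No doublet caller was run.

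Counts summed per library and gate were tested with edgeR 4.0.16 (glmQLFit, TMM, filterByExpr, Benjamini-Hochberg over all genes of a gate, threshold 0.05) in R 4.3.3, as hormone plus PBDE level with 4 residual degrees of freedom, so the PBDE levels stood in as repeats. Genes were named as the 9 inhibitors, up to 12 Wnt pathway genes with the largest E2 change among those called, and the 3 genes most like each inhibitor. The inhibitors, lists and markers were chosen with earlier results of these data known. Cells thinned to 5000 UMIs and shared barcodes left out were alternatives chosen after seeing the data. Tested on simulated data with 200 genes changed by a log2 fold of 1, the code recovered 69.5% for E2 and 57.0% for P4 in the Tnc/Mfap4 gate, and 72.5% to 86.0% for E2 in the others. Of the genes called for E2, 9.15% were false in the Tnc/Mfap4 gate, 13.7% in the Gdf10/F3 gate and 5.84% to 6.59% in the others. For P4 the false share was 5.66% to 10.6% over the gates. Each of these shares exceeded the threshold of 0.05. The simulation held no PBDE effect and changed 200 of 11246 genes in the Tnc/Mfap4 gate, where 32.8% were called for E2 in the data. It therefore does not measure false calls under so broad a change.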

Additional observations from a re-analysis of the deposited data

Results flagged for a closer look

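A total of 11 effects of a hormone on an inhibitor in a gate differed from the mean effect in the other 4 gates by an edgeR test of the difference itself, with p adjusted over all genes. For E2 in the Tnc/Mfap4 gate the log2 differences were -3.16 for Sfrp4, -2.65 for Dkk2 and -0.65 for Sfrp2. For E2 they were 1.32 for Dkk2 and 1.29 for Sfrp4 in the Dpp4/Pi16 gate, and 1.68 for Sfrp4 in the Fabp4/Lpl gate. For P4 in the Tnc/Mfap4 gate they were -1.72 for Sfrp4, -1.55 for Sfrp1, -1.53 for Dkk2 and -1.22 for Sfrp2, and in the Dpp4/Pi16 gate 1.02 for Sfrp1. Each gate was set against a mean that includes the others, so a large effect in the Tnc/Mfap4 gate also enters the comparisons of the Dpp4/Pi16 and Fabp4/Lpl gates. Of the 6 differences for E2, those of Sfrp4 and Dkk2 in the Tnc/Mfap4 gate and of Dkk2 in the Dpp4/Pi16 gate passed in each of the 11 alternatives run for them, and of the 5 for P4 that of Sfrp1 in the Tnc/Mfap4 gate did. The level of Sfrp4 in the Fabp4/Lpl gate, and in the Tnc/Mfap4 gate with E2 and P4, was below that in immune cells of the same libraries, as was Sfrp1 in the Dpp4/Pi16 gate in 2 of the 3 libraries with E2.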

How the results depend on the processing

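No called value changed direction in any alternative run. In the Tnc/Mfap4 gate the E2 changes of Dkk2 (log2 -3.01 to -2.15) and Sfrp4 (-3.59 to -2.13) were called in each of 24 alternatives, and the P4 change of Sfrp1 (-1.35 to -1.15) in each of 22. The 5 inhibitor calls for E2 became 14 with no filter on low counts, 3 with a stricter gate margin, 3 in cells thinned to 5000 UMIs, 3 for E2 alone, 8 for E2 with P4 alone, and 3 to 6 when single libraries were left out (3 without VCD_High_PBDE). The 2 calls for P4 became 1 with library sizes only, 6 with no filter, 4 when the negative selection allowed 1 UMI, 1 with second marker lists, 4 with a stricter margin, 1 without the low PBDE level, 4 with NormEnv added, 4 without shared barcodes, and 1 to 4 when single libraries were left out (1 without VCD_E2_P4, VCD_Low_E2 or VCD_High_PBDE_E2_P4, 4 without VCD_Low_PBDE or VCD_High_PBDE_E2). The 22 calls between gates became 21 to 22 without single libraries. The 6 differences of the E2 effect became 3 to 8 (3 without VCD_Low_PBDE), and the 5 of the P4 effect 2 to 6 (2 without VCD_Low_E2, 3 without VCD_E2, VCD_E2_P4 or VCD_Low_E2_P4) and 3 with second marker lists. The cause was not tested.

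Over all genes, the 3689 E2 calls in the Tnc/Mfap4 gate became 2354 with DESeq2, 1928 in thinned cells, 2174 without VCD_Vehicle and 2125 without the low PBDE level. In the Dpp4/Pi16, Fabp4/Lpl, Gdf10/F3 and Cilp/Myoc gates the 1168, 1506, 323 and 176 E2 calls ranged over 15 to 1428, 419 to 1819, 50 to 831 and 21 to 661. The 586 P4 calls in the Tnc/Mfap4 gate ranged from 69 without the low PBDE level to 1128 with no filter, and the 6, 105, 30 and 29 in the other gates over 0 to 104, 0 to 523, 0 to 311 and 0 to 448. With library sizes only, the share of E2 calls that were higher moved from 50.9% to 63.3% in the Tnc/Mfap4 gate, from 56.2% to 69.2% in the Fabp4/Lpl gate and from 68.4% to 45.8% in the Gdf10/F3 gate. The labels give no replicate numbers that pair libraries, so no fit had such a block. Hormone groups were matched by PBDE level, a term of their fits, and gates by library. The sets of libraries that shared barcodes were not a term. Sfrp5, Frzb, Wif1 and Dkk1 had 12 to 539 UMIs each in all fibroblasts, so changes in them had few counts behind them.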
